A study of Mus musculus with 6 samples.

Results

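Myosin light chains are the small subunits that wrap the lever arm of myosin, and 10 of their genes were followed here through the differentiation of the mouse myoblast line C2C12 with and without 4-phenylbutyric acid (4-PBA), a small fatty acid used as a chemical chaperone and histone deacetylase inhibitor. The genes were chosen by symbol: Myl1, Myl2, Myl3, Myl4, Mylpf, Myl6, Myl6b, Myl9, Myl12a and Myl12b. All 10 were found among the 43074 gene symbols of the deposited count table, and all 10 were among the 17433 genes with enough counts to test. Myl2 and Myl3 passed that filter only through the day 4 libraries, so for these genes passing it already required a difference from day 0. C2C12 is an established line that proliferates as myoblasts and, in low-serum medium, fuses into myotubes.

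The 6 libraries were bulk RNA-seq of total RNA and fell into 3 groups of 2. The day 0 cells were untreated. The day 4 DMSO cells had spent 4 days in horse-serum differentiation medium with DMSO, and the day 4 4-PBA cells 4 days in the same medium with 1 mM 4-PBA. All cells carried the label WT for genotype, C2C12 for cell line, skeletal muscle for tissue and 1 for batch. Every group thus shared a single cell line and a single batch label. A shared label does not show that no difference of handling arose between the groups. Between day 0 and day 4 DMSO the time, the medium and the solvent changed together, and their parts cannot be told apart. The labels do not say whether the replicates were separate cultures, so p-values measure only the spread between these libraries, which may be technical.

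Each myosin motor is built from a pair of heavy chains, and the neck of each heavy chain carries an essential and a regulatory light chain. Sarcomeric light chains belong to the thick filaments of striated muscle, while the non-muscle and smooth muscle forms serve the contractile cytoskeleton that all cells use for adhesion, shape and division. Phosphorylation of the regulatory chain by myosin light chain kinases turns on non-muscle and smooth muscle myosin and modulates skeletal muscle myosin, and myosin phosphatase reverses it. Developing skeletal muscle is known to use the embryonic and atrial essential chain Myl4 beside the fast chains Myl1 and Mylpf, while Myl2 and Myl3 are the chains of slow and ventricular muscle.

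Library totals ranged from 47908926 to 74697397 counts, and levels are given as CPM, the count scaled to a common library total, after TMM scaling, which corrects for differences in library composition. The identity of the cells was checked on marker genes. All 6 muscle markers (Myod1, Myf5, Des, Cdh15, Ncam1 and Myog) were present in every group, with a summed level of 1449 to 1464 CPM at day 0, 3984 to 3993 CPM with DMSO and 3778 to 3796 CPM with 4-PBA. Markers of smooth muscle summed to 183 to 187 CPM at day 0, 189.8 to 202 CPM with DMSO and 192 to 193 CPM with 4-PBA, but the defining smooth muscle heavy chain Myh11 was at a mean of 0.0712, 0.157 and 0.298 CPM in the same order. Most of that sum was Smtn, at means of 175, 172 and 164 CPM, while Cnn1 had means of 3.88, 12.3 and 14.4 CPM and Lmod1 5.97, 11.2 and 13.4 CPM, both higher at day 4 than at day 0 and highest with 4-PBA. Cardiac markers summed to 4.4 to 5.62 CPM at day 0, 16.3 to 16.5 CPM with DMSO and 13.3 to 14.7 CPM with 4-PBA, with the atrial regulatory chain Myl7 at 0 in every library and the atrial peptide gene Nppa at 0 at day 0. Endothelial markers summed to at most 0.883 CPM, macrophage markers to at most 0.638 CPM, adipocyte markers to at most 0.161 CPM and osteoblast markers to at most 0.342 CPM in any library.

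The regulatory chains of the non-muscle group are close copies of each other, which matters for how reads are shared among them. Within the 516 coding bases, Myl12a and Myl12b differed at 18 positions (96.5% identity), Myl9 was 85.7% identical to Myl12a and 86.4% to Myl12b, and Myl6 was 81.1% identical to its essential relative Myl6b (GENCODE M21, GRCm38). The first 90 coding bases are shown 5′ to 3′ from the start codon, with capitals in Myl12b and Myl9 marking the 4 and 13 bases that differ from Myl12a.
Myl12a: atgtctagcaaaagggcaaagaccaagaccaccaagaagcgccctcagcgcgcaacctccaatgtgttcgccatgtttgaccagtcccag
Myl12b: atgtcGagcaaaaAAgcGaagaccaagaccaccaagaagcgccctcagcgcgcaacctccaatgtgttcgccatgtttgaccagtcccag
Myl9: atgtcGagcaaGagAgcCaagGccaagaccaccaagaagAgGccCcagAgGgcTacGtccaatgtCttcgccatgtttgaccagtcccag
The last 102 coding bases, positions 415 to 516 counted from the start codon, were identical in Myl12a and Myl12b. A read that falls wholly inside this stretch cannot be placed in either gene by sequence.
Shared by Myl12a and Myl12b: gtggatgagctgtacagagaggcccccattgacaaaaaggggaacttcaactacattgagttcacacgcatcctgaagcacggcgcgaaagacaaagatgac
Of all 50-base windows in the annotated transcripts, 29.6% of those of Myl12a and 11.4% of those of Myl12b also occurred in another gene. The share was 53.2% for Myl6 and 32.1% for Myl1, whose copies are other gene models (5 for Myl6, and Mylf-ps for Myl1), 0.921% for Myl6b, and 0% for Myl2, Myl3, Myl4, Mylpf and Myl9. How the study's counting assigned such reads is not given in the sources used here, so the levels of Myl6, Myl1, Myl12a and Myl12b are uncertain in that respect. Exons of Myl2, Myl3, Myl4 and Myl12a also overlap a gene on the opposite strand (Ccdc63, Pth1r, Gm22000 and Myom1). Myl12a and Myl12b also overlap each other on the same strand, which counting by strand cannot resolve. The libraries were directional, but whether counting used strand is not given.

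The promoters of 3 genes are shown because these genes stand for the main behaviours seen below: Myl1 and Mylpf rose together from low levels, and Myl9 rose at day 4 and was higher again with 4-PBA. Each stretch runs 5′ to 3′ along the gene's strand from 250 bases before to 50 bases after the annotated start (RefSeq, GRCm38.p6). Capitals mark CAGCTG, an E-box form known to be bound by the muscle factors MyoD and myogenin, in Myl1 and Mylpf, and a CArG box, the element bound by serum response factor, in Myl9.
Myl1, chr1:66945007-66945306, minus strand: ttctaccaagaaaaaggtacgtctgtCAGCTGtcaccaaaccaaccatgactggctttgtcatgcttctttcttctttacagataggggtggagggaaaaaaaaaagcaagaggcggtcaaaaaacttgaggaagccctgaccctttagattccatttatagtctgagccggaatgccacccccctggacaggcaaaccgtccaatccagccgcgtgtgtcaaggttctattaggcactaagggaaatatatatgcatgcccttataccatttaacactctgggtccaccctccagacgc
Mylpf, chr7:127211358-127211657, plus strand: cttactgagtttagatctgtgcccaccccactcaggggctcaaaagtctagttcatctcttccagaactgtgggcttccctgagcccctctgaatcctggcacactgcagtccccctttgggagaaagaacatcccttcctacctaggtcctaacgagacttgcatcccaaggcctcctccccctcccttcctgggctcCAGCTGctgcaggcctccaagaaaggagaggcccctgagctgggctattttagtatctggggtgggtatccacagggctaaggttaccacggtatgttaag
Myl9, chr2:156775214-156775513, plus strand: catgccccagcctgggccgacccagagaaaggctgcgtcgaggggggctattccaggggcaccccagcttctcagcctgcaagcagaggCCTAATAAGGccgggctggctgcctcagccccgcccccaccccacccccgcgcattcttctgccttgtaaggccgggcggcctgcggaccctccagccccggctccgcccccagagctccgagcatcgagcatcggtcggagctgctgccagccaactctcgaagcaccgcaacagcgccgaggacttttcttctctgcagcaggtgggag
The CAGCTG match began at position -224 from the start in Myl1 and at -51 in Mylpf, and the CArG box at -161 in Myl9. All 10 genes had an entry, with 12 promoters of 300 bases in all, since Myl2 and Myl6 had 2 starts each. CAGCTG occurred in 5 of the 12, those of Myl1, Mylpf, Myl12a and both of Myl2, against 16.3% of all 32851 promoters in the table. Any E-box (CANNTG, which includes CAGCTG) occurred in 10 of the 12, against 72.3% of all. A CArG box occurred in 3, of Myl3, Myl6 and Myl9, against 1.63% of all, and the MEF2 box in 0, against 0.557% of all. Each of these motifs reads the same on both strands, both strands were covered, and a match is a match of letters, with no measurement of binding.

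At day 0 the light chain transcripts were almost all of the non-muscle kind. To compare genes, CPM was divided by the length of the annotated transcript in kilobases (kb). On this scale Myl6, the essential chain of non-muscle and smooth muscle myosin, stood at 1271 CPM per kb, followed by its regulatory partner Myl12a at 138. The fast chains Mylpf (29.5 CPM per kb) and Myl1 (18.1) lay on either side of Myl9 (21.0), and Myl12b (12.8), Myl6b (11.2) and Myl4 (5.44) came below. The libraries of these neighbours did not overlap, though the gap between Myl12b and Myl6b was smaller than the range of either gene. The order in the middle turned on the length used, since Myl12a and Myl12b have long annotated transcripts. By coding length Myl12b came next after Myl12a (53.1 CPM per kb), above Myl9 (45.8) and Mylpf (44.6), which then overlapped, and Myl1 (32.3). Myl6 and Myl12a stood at the top, and Myl4, Myl2 and Myl3 at the bottom, by either length. Myl2 at 0.0801 and Myl3 at 0 CPM per kb were not separated from each other. The 5 sarcomeric chains made up 3.55% and 3.50% of the summed CPM per kb of the 10 genes in the day 0 libraries.

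**Figure D1:**
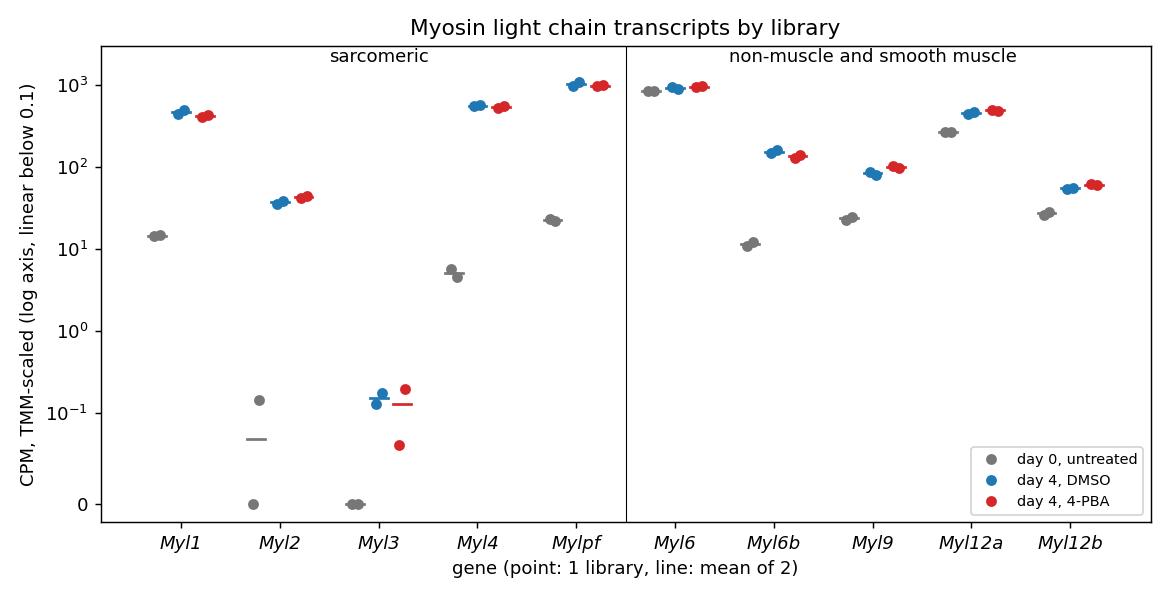
Level of each light chain transcript in CPM (log axis, linear below 0.1) at day 0, day 4 with DMSO and day 4 with 4-PBA, each point 1 library and each line the mean of 2. The sarcomeric genes on the left lay far below their day 4 levels at day 0, while Myl6 lay between 838 and 961 CPM in all 6 libraries.

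Differentiation in DMSO medium raised all 10 genes. Of the sarcomeric chains with counts in both day 0 libraries, the rise ran from 32.1-fold (Myl1) to 111-fold (Myl4). Myl2 had a larger fitted rise of 430-fold, which rested on 10 counts in a single day 0 library, and Myl3 had none at day 0. The non-muscle chains rose by 1.09-fold (Myl6) to 13.3-fold (Myl6b). By edgeR's quasi-likelihood test with Benjamini-Hochberg adjustment over all 17433 genes, 10 of 10 passed an adjusted p of 0.05 and none was lower. These 10 include Myl2 and Myl3, which were tested only because of their day 4 counts. The adjusted p-values of these genes against day 0 therefore give no separate support for a rise. Of all tested genes 66.3% passed in this comparison (33.8% higher and 32.6% lower), so a call by itself was common here and the sizes of the changes tell more. The median log2 change was 6.29 for the 5 sarcomeric chains (5.53 with Myl3 at its bound, below), 1.00 for the 5 non-muscle chains and 0.023 for all tested genes. In bulk RNA, more cells of a type and more RNA per cell cannot be told apart.

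Among the sarcomeric essential chains, Myl1, the fast skeletal essential chain, had 14.3 and 14.8 CPM at day 0 and 439.7 and 496 CPM at day 4 with DMSO. The log2 change was 5.00 (SE 0.063, edgeR adjusted p = 4.90e-15). Myl4, the embryonic and atrial essential chain, had 5.72 and 4.54 CPM at day 0 and 554 and 570.0 CPM with DMSO, a log2 change of 6.80 (SE 0.063, edgeR adjusted p = 4.50e-21). For both genes every day 4 library lay far above every day 0 library, and the rise of Myl4 was the larger. Myl3, the slow and ventricular essential chain, had 0 and 0 counts at day 0 and only 8 and 13 counts with DMSO. Set against a floor of 3 counts per library at day 0, it was at least 2.89-fold higher with DMSO (edgeR adjusted p = 0.00148).

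Of the sarcomeric regulatory chains, Mylpf, the fast skeletal form, reached the highest level per kb of the sarcomeric chains. It had 23.0 and 22.2 CPM at day 0 and 986 and 1097 CPM with DMSO, a 46.2-fold rise (log2 5.53, SE 0.049, edgeR adjusted p = 1.15e-23). The groups lay far apart. Myl2, the slow and ventricular regulatory chain, was nearly silent at day 0, with 0 counts in replicate 1 and 10 counts in replicate 2, and had 35.4 and 38.5 CPM with DMSO. The fitted log2 change was 8.75 (SE 0.19, edgeR adjusted p = 7.93e-20). Its size rested on the day 0 library with counts: it was 8.0 without day 0 replicate 1, and without day 0 replicate 2 no day 0 count was left, so that the fitted 14.2 is no measured size.

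The non-muscle essential chains behaved unlike each other. Myl6 had 853 and 838 CPM at day 0 and 940.3 and 904 CPM with DMSO, a rise of 9.10% (log2 0.13, SE 0.028, edgeR adjusted p = 1.70e-04). Its change was the smallest of the 10. Myl6b, the related essential chain that is also known from slow skeletal muscle, had 10.7 and 12.2 CPM at day 0 and 148 and 159 CPM with DMSO, a 13.3-fold rise (log2 3.74, SE 0.065, edgeR adjusted p = 1.08e-17). The share of Myl6b in the summed CPM per kb of Myl6 and Myl6b was 0.810% and 0.932% at day 0 and 9.28% and 10.3% with DMSO (means of 1.34% and 14.3% in CPM without a length).

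All 3 regulatory chains of the non-muscle group rose. Myl9, the form typical of smooth muscle, had 22.7 and 24.6 CPM at day 0 and 86.7 and 80.5 CPM with DMSO, a 3.52-fold rise (log2 1.82, SE 0.050, edgeR adjusted p = 1.01e-25). Myl12a had 270.4 and 264 CPM at day 0 and 448 and 473 CPM with DMSO (log2 0.79, SE 0.031, edgeR adjusted p = 7.22e-22). Its neighbour and close copy Myl12b had 26.2 and 28.6 CPM at day 0 and 53.8 and 56.2 CPM with DMSO (log2 1.00, SE 0.052, edgeR adjusted p = 1.79e-18). Because these regulatory chains rose by more than Myl6 did, the ratio of non-muscle essential to regulatory transcripts, in CPM per kb, went from 7.52 and 7.42 at day 0 to 4.68 and 4.43 with DMSO. The size of this ratio depended on the length used, with means of 3.06 at day 0 and 1.97 with DMSO by coding length and 2.69 and 1.80 in CPM. Within the 3 regulatory chains the share of Myl9 went from 11.7% and 12.7% to 23.1% and 20.9%. The coding lengths of these 3 genes are equal, and by coding length or in CPM the mean share of Myl9 was 7.43% at day 0 and 14.0% with DMSO.

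**Figure D2:**
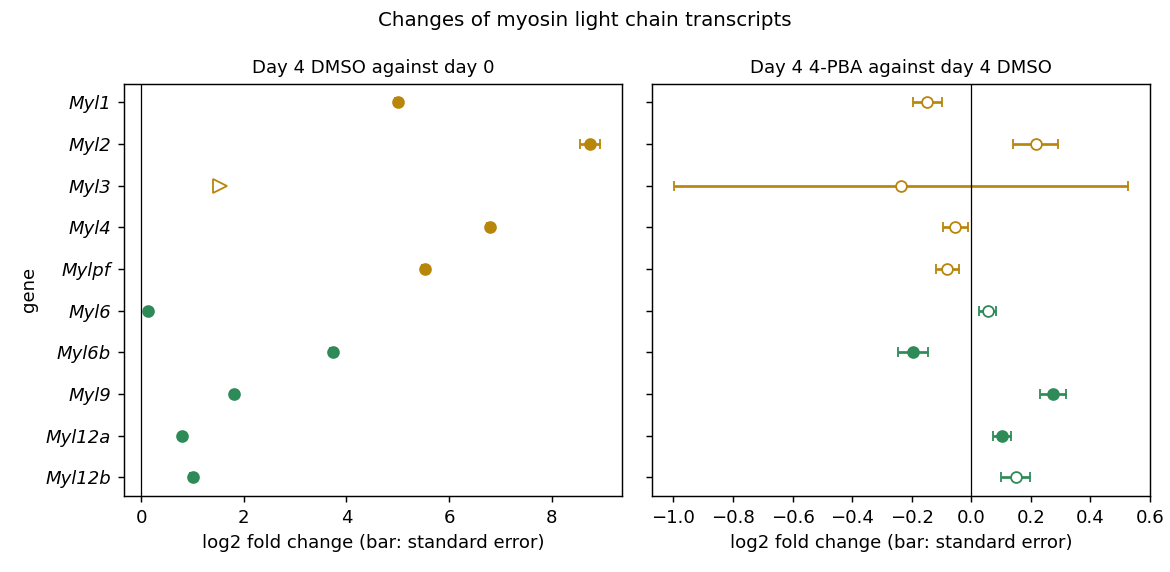
Log2 fold change of each light chain gene for day 4 DMSO against day 0 (left) and day 4 4-PBA against day 4 DMSO (right), with standard errors, filled points passing an adjusted p of 0.05 and the open triangle a lower bound for Myl3. The left panel spans 0.13 for Myl6 to 8.75 for Myl2, whereas on the right no gene lay beyond 0.28 in either direction.

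At day 4 with DMSO the make-up of the pool had turned over. The sarcomeric chains held 56.5% and 59.2% of the summed CPM per kb of the 10 genes. Mylpf (1359 ± 102 CPM per kb, SD, n = 2) and Myl6 (1387 ± 38.3, SD, n = 2) stood at the top and their libraries overlapped. Myl4 at 596 and Myl1 at 582 CPM per kb overlapped too. Below them came Myl12a (238), Myl6b (150), Myl9 (74.1), Myl2 (41.6), Myl12b (25.7) and Myl3 (0.161), each apart from its neighbours. By coding length Mylpf and Myl6 were again at the top and overlapping. Myl1 (1039) then lay above Myl4 (970.2), still overlapping it, and Myl12b (107) above Myl2 (74.2). Each length is that of 1 annotated transcript per gene, for Myl1 1 of 5 and with 450 coding bases, and other transcripts were not tried. The embryonic chain Myl4 made up 51.7% and 49.5% of the sarcomeric essential transcripts, against 25.4% and 20.7% at day 0, and Mylpf made up 97.0% and 97.1% of the sarcomeric regulatory transcripts, against 100% and 99.4% at day 0.

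**Figure D3:**
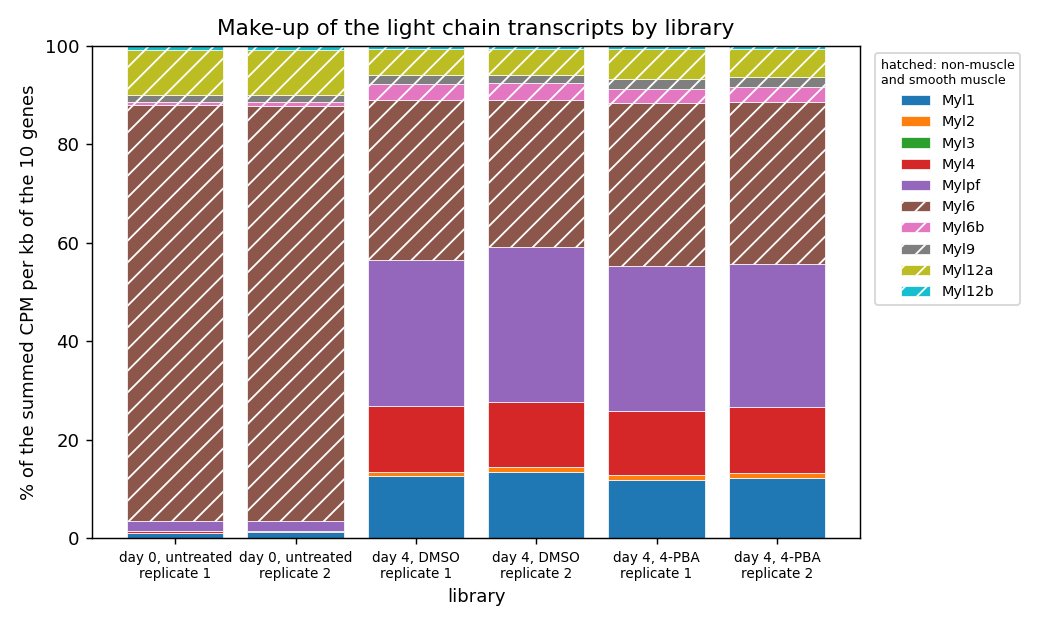
Share of each gene in the summed CPM per kb of the 10 light chains (y axis, %) in each of the 6 libraries (x axis), with non-muscle and smooth muscle chains hatched. Sarcomeric chains took 3.50% to 3.55% at day 0 and 55.4% to 59.2% in the 4 libraries of day 4.

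The heavy chains that these light chains serve give a measure of the other side of the motor. Of 9 tested sarcomeric heavy chain genes, out of 10 listed, 9 rose with DMSO (median log2 change 5.87), where 33.8% of all tested genes rose. Myh6 (8 and 10 counts at day 0), Myh8 (3 and 21) and Myh13 (1 and 0) passed the filter only through day 4 libraries. For these genes a difference from day 0 was already required for testing, and Myh15 had too few counts to test. The developmental heavy chains led: Myh8, the perinatal form, rose by 7.71 on the log2 scale (SE 0.16, edgeR adjusted p = 2.78e-21), though its day 0 level of 0.0617 and 0.299 CPM was low, and Myh3, the embryonic form, had 19.1 and 18.7 CPM at day 0 and 1950 and 2085 CPM with DMSO (log2 6.74, SE 0.040, edgeR adjusted p = 2.63e-44). The size for Myh8 ranged from 7.14 to 9.39 over the alternatives, which included leaving out each day 0 library. Summed per kb, sarcomeric light chains exceeded sarcomeric heavy chains by 13.7 and 13.7 times at day 0, 6.62 and 6.82 times with DMSO and 6.42 and 6.36 times with 4-PBA. The size of this ratio depended on the length used, with means of 21.3, 10.4 and 9.87 by coding length and 1.80, 0.909 and 0.865 in CPM without a length, where light chains no longer exceeded heavy chains at day 4. The order of the 3 groups was the same in each.

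Of the 4 non-muscle and smooth muscle heavy chain genes, 2 rose and 1 fell with DMSO (median log2 change 0.59). Over all tested genes 33.8% rose and 32.6% fell. Myh9, a non-muscle heavy chain found in most cells, rose from 2550 and 2589 CPM to 3076 and 2916 CPM (log2 0.22, SE 0.027, edgeR adjusted p = 5.45e-09). Myh10 fell from 201 and 198 CPM to 169 and 162 CPM (log2 -0.27, SE 0.033, edgeR adjusted p = 5.93e-09), and Myh14, at 0.288 and 0.256 CPM at day 0, rose by 3.32 on the log2 scale (SE 0.27, edgeR adjusted p = 2.23e-13). The non-muscle light to heavy ratio per kb was 3.97 and 3.86 in the day 0 libraries, 4.34 and 4.49 in the DMSO libraries and 4.75 and 4.70 in the 4-PBA libraries, so its groups did not overlap. In CPM without a length the means were 0.424, 0.530 and 0.570, in the same order.

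Set beside DMSO at the same day, 4-PBA left the light chain pattern of differentiated cells in place and moved single members by little. The regulatory chains Myl9 and Myl12a were higher and the essential chain Myl6b was lower. These 3 of 10 genes passed an adjusted p of 0.05, against 4.90% of all tested genes (2.13% higher and 2.78% lower). Overlap or separation of libraries between groups is given throughout as a description only, and its share over all tested genes was not counted. The libraries with 4-PBA and with DMSO were also separated for Myl1, Myl2, Myl4, Myl6 and Myl12b, none of which passed. Separation by itself thus did not set a gene apart. None of the 5 sarcomeric chains passed (edgeR), and their median log2 difference was -0.080, against 0.10 for the 5 non-muscle chains and 0.0021 for all tested genes. At an unadjusted p under 0.05 there were 2908 genes in all, among them Myl1 and Myl2 of the sarcomeric chains, and DESeq2 called Myl1 alone of these 5.

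The largest of these differences was that of Myl9, which had 86.7 and 80.5 CPM with DMSO against 103 and 98.6 CPM with 4-PBA. Myl9 was 21.0% higher with 4-PBA (log2 0.27, SE 0.045, edgeR adjusted p = 1.52e-04). In 15 fits with other tests, scalings, filters, designs or single libraries left out, the difference lay between 0.22 and 0.33 and the adjusted p between 2.99e-08 and 0.0217. Myl9 was also the gene with no window shared with another gene and no overlapping exon in the annotation among the 3 that passed. Beside it, the smooth muscle markers Cnn1 and Lmod1 had higher means with 4-PBA than with DMSO (14.4 against 12.3 CPM and 13.4 against 11.2 CPM), Smtn had a lower one (164 against 172 CPM) and Myh11 was under 1 CPM. The part of such cells in the difference of Myl9 was not tested.

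Myl12a, a regulatory chain of non-muscle myosin, had 448 and 473 CPM with DMSO against 503 and 486 CPM with 4-PBA. It was 7.44% higher (log2 0.10, SE 0.031, edgeR adjusted p = 0.0443), close to the threshold. The call was lost without day 0 replicate 1 (adjusted p = 0.0865), day 0 replicate 2 (0.0831), DMSO replicate 1 (log2 0.064, adjusted p = 0.258), 4-PBA replicate 1 (log2 0.080, 0.465) or 4-PBA replicate 2 (0.136), and in a fit of the 4 day 4 libraries alone (0.0808). Over all alternatives the adjusted p ran from 4.68e-04 to 0.465, with a positive difference in each. Its copy Myl12b had 53.8 and 56.2 CPM with DMSO against 62.0 and 59.99 CPM with 4-PBA. The groups did not overlap, but the difference of 0.15 (SE 0.049) did not pass (edgeR adjusted p = 0.0757). It passed with limma-voom (0.0467) and without DMSO replicate 2 (log2 0.18, adjusted p = 0.0315), within a range of 0.0315 to 0.444.

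Of the essential chains, Myl6b had 148 and 159 CPM with DMSO against 127 and 141 CPM with 4-PBA. Myl6b was 12.7% lower with 4-PBA by the fitted change (log2 -0.20, SE 0.052, edgeR adjusted p = 0.0411). The call was lost without DMSO replicate 2 (log2 -0.14, adjusted p = 0.112) and without 4-PBA replicate 1 (log2 -0.12, adjusted p = 0.349), the range being 2.00e-05 to 0.349. Myl6 had 940.3 and 904 CPM with DMSO against 955 and 961 CPM with 4-PBA, a difference of 0.055 (SE 0.028, edgeR adjusted p = 0.323) that passed only without DMSO replicate 1 (0.082, adjusted p = 0.0398, in a range of 0.0398 to 0.717).

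The sarcomeric chains showed small differences of either sign. Myl1 had 439.7 and 496 CPM with DMSO against 413 and 432 CPM with 4-PBA, without overlap (log2 -0.15, SE 0.049, edgeR adjusted p = 0.133). The size turned on which DMSO library was kept: it was -0.23 without DMSO replicate 1 (adjusted p = 1.12e-08) and -0.057 without DMSO replicate 2, over a range of adjusted p from 1.12e-08 to 0.445. Mylpf had 986 and 1097 CPM with DMSO against 983 and 987 CPM with 4-PBA, so the groups overlapped (log2 -0.080, SE 0.038, edgeR adjusted p = 0.304). It too depended on a single library, with -0.16 (adjusted p = 1.11e-05) without DMSO replicate 1 and 0.00022 (adjusted p = 0.998) without DMSO replicate 2.

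Myl4 had 554 and 570.0 CPM with DMSO against 529 and 554 CPM with 4-PBA, with the nearest libraries almost level (log2 -0.054, SE 0.042, edgeR adjusted p = 0.598). Myl2 stood at 35.4 and 38.5 CPM with DMSO against 42.2 and 43.8 CPM with 4-PBA, higher in both 4-PBA libraries, but the difference of 0.22 (SE 0.076) did not pass (edgeR adjusted p = 0.116). It passed without day 0 replicate 1 (0.0325), day 0 replicate 2 (0.0295) or DMSO replicate 2 (log2 0.28, 0.0185), with limma-voom (0.0234), with no filter on low counts (0.0116) and in the 4 day 4 libraries alone (0.0190), the range being 0.0116 to 0.498. Myl3 had 8 and 13 counts with DMSO and 4 and 12 counts with 4-PBA, too few to detect a difference (log2 -0.24, SE 0.76, edgeR adjusted p = 0.929). Beside these values, the summed muscle markers were 3984 to 3993 CPM with DMSO and 3778 to 3796 CPM with 4-PBA. The single markers went different ways. With DMSO and with 4-PBA the means fell for Des (2212 and 2052.5 CPM), Ncam1 (799 and 715) and Myod1 (114 and 110). They rose for Cdh15 (554 and 598) and Myf5 (22.9 and 23.8), and Myog was almost level (287 and 288). The part of the muscle markers in the differences of the sarcomeric chains was not tested.

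**Figure D4:**
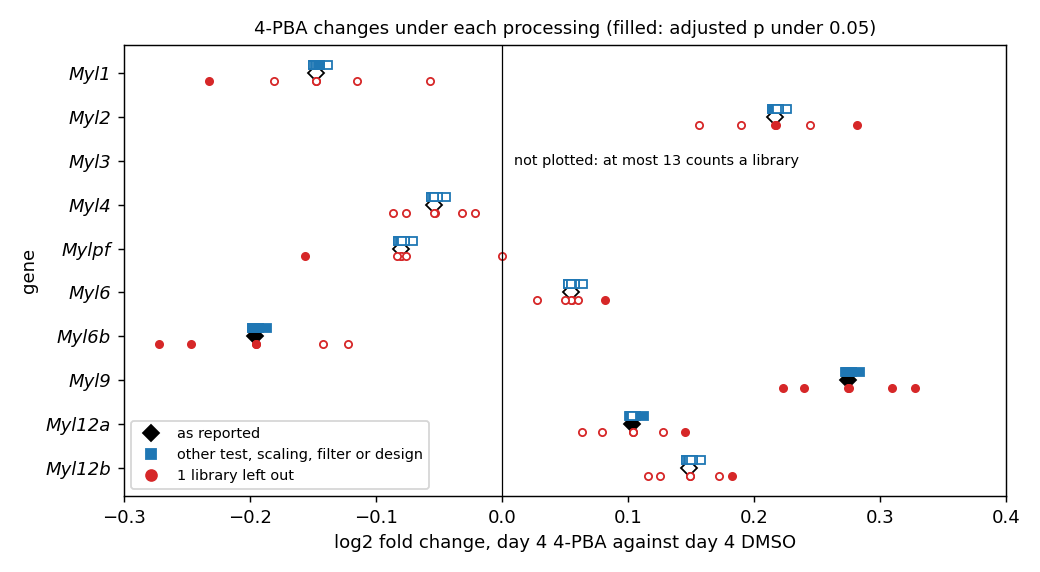
Log2 fold change of each light chain gene for 4-PBA against DMSO at day 4 in the reported fit (diamonds), under other tests, scalings, filters and designs (squares) and with 1 library left out (circles), filled where the adjusted p was under 0.05. Myl9 stayed between 0.22 and 0.33 and filled throughout, while Mylpf ran from -0.16 to 0.00022. Myl3, with at most 13 counts a library, is not drawn.

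The make-up of the pool with 4-PBA stayed close to that with DMSO. The sarcomeric share of the summed CPM per kb was 55.4% and 55.8%, below both DMSO libraries (56.5% and 59.2%). The order was Myl6 (1441 CPM per kb), Mylpf (1286), Myl4 (574), Myl1 (526), Myl12a (255), Myl6b (131), Myl9 (89.6), Myl2 (48.3), Myl12b (28.5) and Myl3 (0.137), with no overlap between neighbours. This order too turned on the length used. By coding length Myl12a (959), Myl1 (938) and Myl4 (935) came next after Mylpf with overlapping neighbours and Myl12b (118) lay above Myl2 (86.3), and in CPM without a length Mylpf (985) lay above Myl6 (958). Myl4 made up 52.2% and 52.2% of the sarcomeric essential transcripts and Mylpf 96.4% and 96.3% of the sarcomeric regulatory ones. Myl9 took 24.1% and 23.8% of the non-muscle regulatory transcripts, above 23.1% and 20.9% with DMSO (means of 15.4% and 14.0% by coding length), and Myl6b took 7.97% and 8.70% of the essential ones, below 9.28% and 10.3%.

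Against day 0, 4-PBA gave 10 of 10 genes higher (edgeR, adjusted p under 0.05), where 65.6% of all tested genes passed (33.2% higher and 32.4% lower). The 10 again include Myl2 and Myl3, which were tested only because of their day 4 counts. This comparison shares its day 0 libraries with that of DMSO, so the values are set side by side only. For the regulatory chains of the non-muscle group the log2 changes with 4-PBA and with DMSO were 2.09 and 1.82 for Myl9, 0.89 and 0.79 for Myl12a, and 1.15 and 1.00 for Myl12b. The essential chains had 0.18 and 0.13 for Myl6 and 3.54 and 3.74 for Myl6b. Sarcomeric chains had 4.86 and 5.00 for Myl1, 6.74 and 6.80 for Myl4, 5.45 and 5.53 for Mylpf, and 8.96 and 8.75 for Myl2, while Myl3 was at least 2.47-fold higher with 4-PBA and at least 2.89-fold with DMSO. The median over the 5 sarcomeric chains was 6.05 with 4-PBA (5.45 with Myl3 at its bound), over the 5 non-muscle chains 1.15 and over all tested genes 0.018. The call for Myl3 was lost without 4-PBA replicate 2 (adjusted p = 0.0677).

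The kinases and phosphatase subunits that set the phosphorylation of regulatory light chains moved in both directions. Of 17 listed genes 16 could be tested, and 10 rose and 3 fell with DMSO against day 0 (median log2 change 0.15). Over all tested genes 33.8% rose and 32.6% fell in this comparison, so calls were common in either direction. Mylk4, a kinase of the light chain kinase family, rose most, from 2.18 and 1.54 CPM to 15.7 and 12.3 CPM (log2 2.94, SE 0.15, edgeR adjusted p = 2.34e-13), and the smooth muscle and non-muscle light chain kinase Mylk rose from 3.56 and 2.58 CPM to 18.5 and 17.4 CPM (log2 2.58, SE 0.11, edgeR adjusted p = 1.49e-19). Cit, the citron kinase of cytokinesis, fell most, from 119 and 119 CPM to 44.2 and 38.6 CPM (log2 -1.52, SE 0.050, edgeR adjusted p = 5.05e-22). The skeletal muscle light chain kinase Mylk2 fell from 19.4 and 18.7 CPM to 14.2 and 14.7 CPM (log2 -0.40, SE 0.077, edgeR adjusted p = 2.72e-05), opposite in sign to the sarcomeric chains it acts on.

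With 4-PBA against DMSO, 1 gene of that list was higher and 2 were lower (median log2 difference -0.026). Over all tested genes 2.13% were higher and 2.78% lower. Mylk2 was at 11.1 and 10.7 CPM with 4-PBA, below both DMSO libraries (log2 -0.41, SE 0.080, edgeR adjusted p = 0.00135), and this call held in all 15 fits. Ppp1r12b, a targeting subunit of myosin phosphatase, had 36.3 and 37.4 CPM with DMSO against 31.3 and 31.3 CPM with 4-PBA (log2 -0.24, SE 0.057, edgeR adjusted p = 0.0102). Ppp1r14b, an inhibitor of protein phosphatase 1, had 303 and 309.9 CPM with DMSO against 346 and 338 CPM with 4-PBA (log2 0.16, SE 0.030, edgeR adjusted p = 7.12e-04). Without 4-PBA replicate 1 neither passed (adjusted p = 0.115 for Ppp1r12b and 0.0695 for Ppp1r14b), and Ppp1r12b also failed without 4-PBA replicate 2 (0.113) and without DMSO replicate 2 (0.0530), within ranges of 0.00272 to 0.115 for Ppp1r12b and 1.63e-05 to 0.0695 for Ppp1r14b. For Mylk, at 18.04 and 16.2 CPM with 4-PBA, the libraries of the groups overlapped (log2 -0.070, SE 0.090, edgeR adjusted p = 0.785). Mylk, Ppp1r12b and Ppp1r14b overlap an annotated gene of the opposite strand.

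Among sarcomeric heavy chains 3 of 9 were lower with 4-PBA than with DMSO and none was higher (median log2 difference -0.16). Over all tested genes 2.78% were lower and 2.13% higher. Myh7, the slow and ventricular heavy chain, had 47.6 and 46.6 CPM with DMSO against 33.1 and 35.9 CPM with 4-PBA (log2 -0.45, SE 0.059, edgeR adjusted p = 6.07e-06). Myh1, a fast heavy chain of adult muscle, had 152 and 156 CPM with DMSO against 122 and 132 CPM with 4-PBA (log2 -0.28, SE 0.044, edgeR adjusted p = 1.52e-04). Myh6, a cardiac heavy chain, had 10.5 and 10.5 CPM with DMSO against 6.94 and 8.07 CPM with 4-PBA (log2 -0.48, SE 0.11, edgeR adjusted p = 0.00815). Its size was smallest without 4-PBA replicate 1 (log2 -0.38), where the call was lost. The calls for Myh7 and Myh1 held in all 15 fits. The slow heavy chain Myh7 was thus lower with 4-PBA, while the slow regulatory chain Myl2 had higher values in both 4-PBA libraries without passing the test. Myh3, the embryonic heavy chain, overlapped between the groups at 2014 and 2072 CPM with 4-PBA (log2 0.018, SE 0.029, edgeR adjusted p = 0.838). Myh1, Myh6 and Myh7 overlap an annotated gene of the opposite strand.

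Of the 4 non-muscle and smooth muscle heavy chains only Myh10 passed, against 4.90% of all tested genes. Myh10 was higher with 4-PBA, at 182 and 182 CPM against 169 and 162 CPM with DMSO (log2 0.14, SE 0.033, edgeR adjusted p = 0.00881). This call was lost without 4-PBA replicate 1 (0.125) or replicate 2 (0.1098), within a range of 3.97e-04 to 0.125. Myh9, at 2858 and 2909 CPM with 4-PBA, lay just below both DMSO libraries without passing (log2 -0.055, SE 0.027, edgeR adjusted p = 0.296).

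A list of 15 genes covered the contractile cytoskeleton (actins, transgelins, calponins, vinculin, filamin and the serum response factors that drive many of them). With DMSO against day 0, 8 were higher and 5 lower (median log2 change 0.20), where 33.8% of all tested genes were higher and 32.6% lower. Tagln, a smooth muscle actin-binding protein, rose most, from 97.2 and 106 CPM to 579 and 528 CPM (log2 2.45, SE 0.048, edgeR adjusted p = 1.28e-14), and Tagln2 fell most, from 579 and 582 CPM to 378 and 348 CPM (log2 -0.68, SE 0.032, edgeR adjusted p = 5.73e-19). With 4-PBA against DMSO, 2 were higher and 2 lower (median log2 difference 0.020), where 2.13% of all tested genes were higher and 2.78% lower. Tagln was higher with 4-PBA, at 661 and 646 CPM (log2 0.24, SE 0.044, edgeR adjusted p = 0.00769), as was the calponin gene Cnn2, at 405 and 402 CPM against 381 and 355 CPM with DMSO (log2 0.13, SE 0.032, edgeR adjusted p = 0.00881). Of the smooth muscle markers, Cnn1 and Lmod1 had higher means with 4-PBA as well. Smtn had a lower one (164 against 172 CPM with DMSO), and Myh11 stood at 0.157 CPM with DMSO and 0.298 CPM with 4-PBA. The part of such cells in these differences was not tested. Vcl, which encodes vinculin, had 945.7 and 897 CPM with DMSO against 865 and 850.4 CPM with 4-PBA (log2 -0.10, SE 0.029, edgeR adjusted p = 0.0286). Mrtfb, a coactivator of serum response factor, had 76.1 and 72.7 CPM with DMSO against 67.9 and 66.0 CPM with 4-PBA (log2 -0.15, SE 0.044, edgeR adjusted p = 0.0335).

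These 4 cytoskeletal calls depended on single libraries. Without 4-PBA replicate 1 the adjusted p was 0.0568 for Tagln, 0.149 for Cnn2, 0.191 for Vcl and 0.127 for Mrtfb. Without 4-PBA replicate 2 it was 0.102 for Cnn2, 0.365 for Vcl and 0.309 for Mrtfb. Cnn2 was also lost without DMSO replicate 2 (log2 0.084, 0.1005), Vcl and Mrtfb without DMSO replicate 1 (log2 -0.065, 0.155 and log2 -0.12, 0.144) and without day 0 replicate 1 (0.0727 and 0.0524), Vcl also without day 0 replicate 2 (0.0677) and in the 4 day 4 libraries alone (0.0689), and Mrtfb with DESeq2 (0.0663). The lowest adjusted p over the alternatives was 4.75e-12 for Tagln, 2.38e-06 for Cnn2, 9.47e-05 for Vcl and 0.00913 for Mrtfb. Tagln, Vcl and Mrtfb overlap an annotated gene of the opposite strand.

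The remaining light chain genes on the list stayed silent. Myl7, the atrial regulatory chain, had 0 counts in all 6 libraries, and Myl10 had at most 2 counts in any library, so neither could be tested.

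Genes with the most similar course over the 6 libraries were sought among 10672 genes with a mean of at least 5 CPM over these libraries. Likeness was measured as the Euclidean distance between log2 CPM values centred on each gene's mean. The course of Mylpf was nearest to that of Acta1, the skeletal muscle actin (distance 0.0852), Myom3, a myomesin of the sarcomere (0.0856), and Ppfia4 (0.152). Acta1 went from 38.2 CPM at day 0 to 1727 CPM with DMSO and 1619 CPM with 4-PBA. Nearest to Myl1 were Tnnt1, the slow skeletal troponin T (0.133), Itgb1bp2 (0.189) and Gprc5c (0.218). Nearest to Myl9 were Lrrc32 (0.144), Maf (0.201) and Pcdhb16 (0.208), of which Maf went from 4.29 CPM at day 0 to 14.6 CPM with DMSO and 17.7 CPM with 4-PBA. Among the light chains themselves, Myl12a and Myl12b lay 0.305 apart and Myl1 and Mylpf 0.652. Myl6b lay nearest to Myl1 (1.48), ahead of Myl3 (1.68), Mylpf (2.13), Myl4 (3.60) and Myl2 (6.48) of the sarcomeric chains. From the other non-muscle chains it lay 2.02 (Myl9), 2.99 (Myl12b), 3.27 (Myl12a) and 4.05 (Myl6) apart. With 6 libraries, most of each distance comes from the step between day 0 and day 4, and the reads that Myl12a and Myl12b may share enter their distance.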

How the data were processed

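Bulk RNA-seq libraries of C2C12 cells were analysed from 1 table in which the authors deposited raw counts by gene symbol, 1 column a library, unnormalised. Directional libraries were made from DNase-treated RNA, per the labels. The submitters' processing notes name GRCm39; the aligner, counter, annotation and use of strand are not given in the sources used here. No genome of that build was used: lengths, overlaps and coding sequences came from GENCODE M21 (GRCm38) and promoters from RefSeq (GRCm38.p6).

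Genes were kept by filterByExpr, scaled with TMM and fitted with edgeR 4.0.16 in R 4.3.3 (robust quasi-likelihood, 1 mean per group, all 6 libraries), with Benjamini-Hochberg adjustment over 17433 genes and calls at an adjusted p under 0.05. The standard error (SE) is the size of the log2 change over the square root of F. Residual degrees of freedom were 3 and prior ones 30.4 (median). The common biological coefficient of variation was 3.74%, and replicates differed by more than counting noise (chi-square per degree of freedom 3.88 at day 0, 7.05 with DMSO and 5.57 with 4-PBA). With 2 libraries against 2, a permutation of libraries could not reach 0.05, so the test leans on a spread pooled over genes and groups. Counting error limits Myl3 and the day 0 values of Myl2. Shares, ratios and orders are descriptions with no test.

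The members and all lists were chosen with earlier results of these data known. All members are named; of the listed genes, those called between 4-PBA and DMSO, the largest rise and fall with DMSO in each list, and Myh3, Myh9, Mylk and Mylk2 are named. Alternatives were DESeq2 1.42.0 (size factors and Wald test), limma-voom (limma 3.58.1), library-size scaling, other filters and thresholds, a fit of the compared libraries alone, a block for replicate number and each library left out. The fit was run on simulated data in which all genes shared a common spread and only better expressed genes were changed. That run does not bear on genes with few counts or a larger spread. Muscle, smooth muscle, cardiac, endothelial, macrophage, adipocyte and osteoblast marker lists were used to check the cells.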

Additional observations from a re-analysis of the deposited data

How the results depend on the processing

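Against day 0, 8 to 10 light chain genes were called higher with DMSO and 8 to 10 with 4-PBA over the alternatives: 8 under an added 2-fold minimum, and 9 with the stricter filter and in the 4 compared libraries alone, where only 9 could be tested, as well as without 4-PBA replicate 2 for 4-PBA. The number of light chain genes called between 4-PBA and DMSO was 3 in the reported fit, 5 with no filter on low counts, 5 with limma-voom, 1 at an adjusted p under 0.01, 0 with an added 2-fold minimum, and 1 to 5 with single libraries left out (5 without DMSO replicate 1, 1 without 4-PBA replicate 1). A lone library left in a group is there assumed to vary like the other groups. Over all genes, that comparison had 855 calls, 424 at an adjusted p under 0.01, 12 with the 2-fold minimum and 295 to 1194 with single libraries left out (341 without 4-PBA replicate 1, 295 without replicate 2). The 2-fold minimum left 3825 calls for DMSO and 3699 for 4-PBA against day 0. The share of sarcomeric chains at day 0, with DMSO and with 4-PBA was 3.53%, 57.9% and 55.6% as reported (means), 3.32%, 54.5% and 52.0% by coding length and 3.48%, 55.7% and 53.2% without a length correction. The other orders, shares and ratios were recomputed on these scales after the data were seen, and are given beside the values where they moved by over 1.5 times or changed order. The sign of the difference between 4-PBA and DMSO changed for Myl3 (0.024 without DMSO replicate 2, 0.34 without 4-PBA replicate 1, in a range of -1.21 to 0.34), Mylpf (0.00022 without DMSO replicate 2, -0.16 to 0.00022), Myh3 (-0.030 without DMSO replicate 1, -0.0020 without 4-PBA replicate 2, -0.030 to 0.069) and Mylk (0.0076 without 4-PBA replicate 2, -0.15 to 0.0076), none of which was called in the reported fit; the cause was not tested.

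Same-numbered libraries did not deviate together (correlations of -0.028, -0.012 and -0.0031 over 17433 genes). The labels do not say whether the replicate numbers pair the samples, and these correlations cannot settle it. With the replicate number as a block, 3 light chain genes were called between 4-PBA and DMSO, Myl1 (log2 -0.15, adjusted p = 0.00899), Myl6b and Myl9, and Myl12a was not (0.0766). Of the other named genes Mrtfb lost its call under the block (0.0515); 768 genes were called in all. Precision is limited by 2 libraries a group, and for Myl3 and for Myl2 at day 0 by counts.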
